A study of Mus musculus with 6 samples.

Results

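The data described here are the RNA levels of 10 genes of the NF-kB system in mouse embryonic fibroblasts (MEF) sampled on day 3 of OSKM reprogramming, with and without RNF20. The OSKM factors OCT4, SOX2, KLF4 and C-MYC were brought in by retroviruses. RNF20 is the E3 ligase that monoubiquitinates histone H2B. The 10 genes are Nfkb1, Nfkb2, Rela, Relb, Nfkbia, Nfkbie, Nfkbiz, Bcl3, Tnfaip3 and Birc3. They were chosen by symbol, and all 10 were found among the 16982 genes of the count table and passed the filter on low counts.

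Poly(A) RNA was sequenced from 3 WT and 3 Rnf20 knockout cultures. The sample labels give the strain background C57BL/6 for all 6, the genotypes wild type and Rnf20-/-, the cell type as reprogrammable cells, and no treatment. By the methods of the study, the knockout cells were Rnf20 Flox/Flox; Tamoxifen-cre MEF from midgestation embryos, in which a ubiquitously expressed, drug-inducible Cre was activated with 4-OH tamoxifen. All 6 cultures shared the retroviral infection. The sources do not state whether the WT cultures received 4-OH tamoxifen, whether they carried the Cre and floxed alleles, or how many embryos each culture came from. The methods also describe replating infected MEF onto mitomycin-C-treated MEF feeder layers, and reads of feeder cells, if present, were not separated. In RNA of whole cultures, a change in the share of a cell type and a change of RNA within its cells cannot be told apart.

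NF-kB is a family of dimeric transcription factors. RELA and RELB carry transactivation domains, and NFKB1 and NFKB2 are made as precursors that are processed to the DNA-binding proteins p50 and p52. In resting cells, inhibitors of the IkB family such as IkB-alpha (Nfkbia) and IkB-epsilon (Nfkbie) hold the dimers in the cytoplasm. Signals from TNF, interleukin-1 or Toll-like receptors lead the IkB kinase (IKK) complex to phosphorylate the inhibitors, which are then degraded. The freed dimers induce inflammatory genes together with genes of their own control, among them Nfkbia, the deubiquitinating enzyme A20 (Tnfaip3), the ubiquitin ligase cIAP2 (Birc3), and the nuclear IkB proteins IkB-zeta (Nfkbiz) and BCL3. Fibroblasts are a classical cell type in which this loop was worked out.

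Each library held 20545442 to 21746898 counts, at which 3 counts correspond to 0.138 to 0.146 CPM (counts scaled to a common library total, here before normalization). Rnf20 itself was at 106 to 107 TMM-normalized CPM in the WT libraries and at 16.4 to 18.7 in the knockout libraries. Knockout replicate 3 stood apart from the other knockout libraries. A chi-square statistic of the counts, which is near 1 per gene when a pair of libraries differs only by sampling, was 8.57 between knockout replicates 1 and 2, against 92.4 and 101 between replicate 3 and these. It was 6.04 to 8.91 between WT libraries, so no pair agreed within sampling noise. Transcripts of 4 Y-linked genes summed to 232 to 258 CPM in the WT libraries and in knockout replicate 2, to 0 in knockout replicate 1 and to 0.0466 in knockout replicate 3. All 10 fibroblast markers examined, Col1a1 and Vim among them, were detected in every library.

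The promoters are shown first, since several of these genes are known to be targets of the factor they control. RefSeq start sites on GRCm38.p6 were available for 7 of the 10 genes, namely Nfkb2, Rela, Nfkbia, Nfkbie, Bcl3, Tnfaip3 and Birc3. The 250 bases before each start site were searched on both strands for the kB consensus, the 10-base pattern that NF-kB dimers bind. It was found before 6 of the 10 start sites of these genes, and before 7.25% of all 32851 start sites of the table. The 6 belong to Nfkb2 (its start sites 1, 2 and 3), Nfkbia, Nfkbie and Tnfaip3, so 4 of the 7 genes had a match. The sequences below end 1 base before the start site and read 5′ to 3′ along the gene, with matches in capitals.
Nfkbia, chr12:55492648-55492897, minus strand: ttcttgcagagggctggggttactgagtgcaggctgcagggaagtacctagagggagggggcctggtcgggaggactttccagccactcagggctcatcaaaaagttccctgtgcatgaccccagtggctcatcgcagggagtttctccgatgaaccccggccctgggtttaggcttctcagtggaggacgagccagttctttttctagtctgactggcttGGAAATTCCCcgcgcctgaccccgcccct
Tnfaip3, chr10:19015411-19015660, minus strand: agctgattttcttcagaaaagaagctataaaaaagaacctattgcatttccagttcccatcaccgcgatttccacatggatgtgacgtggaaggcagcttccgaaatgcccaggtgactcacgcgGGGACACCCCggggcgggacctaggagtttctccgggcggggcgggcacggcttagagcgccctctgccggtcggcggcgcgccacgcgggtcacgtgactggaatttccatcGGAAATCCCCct
Nfkb2, chr19:46304617-46304736, plus strand: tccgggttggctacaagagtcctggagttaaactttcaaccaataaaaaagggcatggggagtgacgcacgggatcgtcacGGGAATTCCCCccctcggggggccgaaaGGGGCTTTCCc
Nfkbie, chr17:45555580-45555699, plus strand: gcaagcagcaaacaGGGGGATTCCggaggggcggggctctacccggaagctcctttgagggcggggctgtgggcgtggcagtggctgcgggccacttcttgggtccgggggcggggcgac
Bcl3, chr7:19822756-19822875, minus strand: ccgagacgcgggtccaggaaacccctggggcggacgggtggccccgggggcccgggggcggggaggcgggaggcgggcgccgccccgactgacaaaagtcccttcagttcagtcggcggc
The match of Nfkbia lay 29 to 20 bases before its start site and the nearer match of Tnfaip3 12 to 3 bases before its own, both on the other strand. Bcl3 is shown as a gene with no match in the 250 bases searched, which says only that these letters are not in that window. Rela and Birc3 also had no match.

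Across the 10 genes, Nfkbiz and Tnfaip3 were higher in Rnf20 knockout than in WT cells (adjusted p under 0.05, edgeR quasi-likelihood F-test), and none was lower. These 2 of 10 compare with 16.4% of the 13386 genes tested that were higher at the same threshold, and the 0 of 10 with 16.6% that were lower. At an unadjusted p under 0.05, 2 were higher and 0 lower, against 22.5% and 23.0% of all genes. With the thresholds of the study (adjusted p under 0.01, a fold over 2 either way and a mean FPKM over 1 in a genotype), 0 of the 10 were called, against 3.59% of all genes, whereas DESeq2 and the exact test of edgeR each called 2 of the 10, against 7.34% and 7.28% of all genes, and the fit without knockout replicate 3 called 1, Tnfaip3, against 5.85%. In 4 of the 10 genes, Rela, Nfkbia, Nfkbiz and Tnfaip3, all knockout libraries lay above all WT libraries, as they did for 26.6% of all genes. In 0 of the 10 did they lie below, against 28.2% of all genes. The log2 fold change was positive in all 10 genes, with a median of 0.40, against a median of 0.00 over all genes tested. All 10 genes had their highest value of the 6 libraries in knockout replicate 3, which was the highest library for 33.1% of all genes. Without that library the median of the 10 was 0.09. In that fit Nfkbiz and Tnfaip3 were again higher and Bcl3 was lower, where 23.9% of all genes were higher and 24.2% lower.

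**Figure D1:**
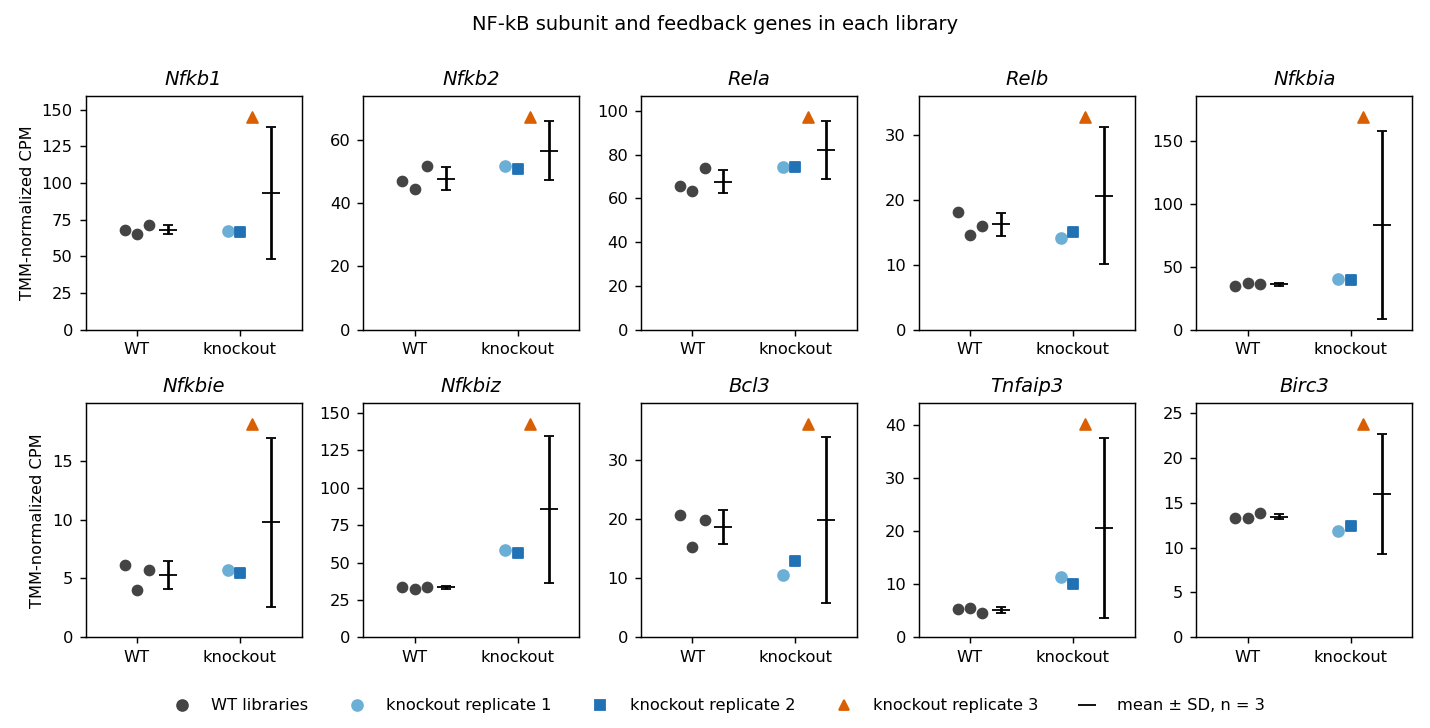
TMM-normalized CPM of the 10 genes in each library, with WT libraries as grey points, knockout replicates 1 to 3 as circles, squares and triangles, and the mean ± SD of each genotype (n = 3) as a bar. Knockout replicate 3 is the highest library in each of the 10 panels, and the other knockout libraries also lie above WT for Nfkbiz and Tnfaip3.

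The 4 DNA-binding subunits did not pass the test. Nfkb1 (ENSMUSG00000028163, chromosome 3 of GRCm38, 135584655 to 135691547, minus strand), the p105 precursor of p50, was at 68.2, 65.1 and 71.1 CPM in WT replicates 1 to 3 and at 67.4, 66.7 and 145 CPM in knockout replicates 1 to 3. Knockout replicates 1 and 2 lay within the WT range, and replicate 3 was 2.13 times the WT mean. The log2 fold change was 0.45 (SE, its standard error, 0.303; adjusted p = 0.282 in the edgeR F-test), and -0.02 without knockout replicate 3 (adjusted p = 0.810).

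Relb, the subunit of the non-canonical pathway that pairs with p52, had a like pattern. Its levels were 18.1, 14.5 and 15.9 CPM in WT and 14.1, 15.1 and 32.7 CPM in knockout replicates 1 to 3. The libraries of the genotypes overlapped, with 1 knockout value below all WT values and replicate 3 above them. The difference on the log2 scale was 0.35 (SE 0.329, adjusted p = 0.436 in the same test) and -0.15 without knockout replicate 3 (adjusted p = 0.309).

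Rela, which encodes the transactivating p65 subunit, varied less. It was at 65.8, 63.5 and 73.9 CPM in WT and at 74.4, 74.2 and 97.3 CPM in knockout replicates 1 to 3. All knockout libraries lay above all WT libraries, the lowest of them by less than 1 CPM. On the log2 scale the change was 0.28 (SE 0.128, adjusted p = 0.141 in the edgeR F-test) and 0.13 without knockout replicate 3 (adjusted p = 0.152). Nfkb2, the p100 precursor of p52, was at 46.8, 44.5 and 51.6 CPM in WT and at 51.7, 50.7 and 67.2 CPM in knockout replicates 1 to 3. One WT library lay between the lower knockout libraries, and the log2 fold change was 0.25 (SE 0.129, adjusted p = 0.180), and 0.11 without knockout replicate 3 (adjusted p = 0.271). Of the exons of Nfkb2, 830 bases overlap genes on the other strand (Psd and AC114539.1), and whether the counting used the strand is not given in the sources used here.

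The cytoplasmic inhibitors showed a wider gap between knockout replicate 3 and the rest. Nfkbia (ENSMUSG00000021025, chromosome 12 of GRCm38, 55489410 to 55492647, minus strand), whose promoter is printed above, was at 34.9, 36.9 and 36.3 CPM in WT. It was at 40.0, 39.7 and 169 CPM in knockout replicates 1 to 3. The groups did not overlap, but replicates 1 and 2 averaged 1.11 times the WT mean and replicate 3 was 4.70 times it. The log2 fold change of 1.20 had an SE of 0.569 (adjusted p = 0.146 in the edgeR F-test). Without knockout replicate 3 it was 0.15 (SE 0.0674, adjusted p = 0.0959).

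Nfkbie was the less abundant of the pair. Its WT libraries held 6.18, 3.99 and 5.74 CPM, and knockout replicates 1 to 3 held 5.73, 5.46 and 18.1 CPM. Knockout replicates 1 and 2 lay inside the WT range, and replicate 3 was 3.41 times the WT mean. Its log2 fold change was 0.88 (SE 0.496, adjusted p = 0.209 in the same test) and 0.08 without replicate 3 (adjusted p = 0.784).

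Of the nuclear IkB proteins, Nfkbiz lay above and Bcl3 below all WT libraries in knockout replicates 1 and 2. Nfkbiz (ENSMUSG00000035356, chromosome 16 of GRCm38, 55811375 to 55838899, minus strand), a coactivator of a subset of NF-kB target genes such as Il6 and Lcn2, was at 33.9, 32.4 and 33.6 CPM in WT. It was at 58.6, 56.1 and 142 CPM in knockout replicates 1 to 3, all above every WT library. Its mean rose from 33.3 ± 0.781 to 85.7 ± 49.1 CPM (SD, n = 3 each), a log2 fold change of 1.36 (SE 0.362, adjusted p = 0.0301 in the edgeR F-test). Leaving out knockout replicate 3 gave 0.79 (SE 0.0639, adjusted p = 8.82e-06), with knockout replicates 1 and 2 at 1.72 times the WT mean. Without WT replicate 1, 2 or 3 the log2 fold change was 1.37, 1.34 and 1.37 (adjusted p = 0.0940, 0.104 and 0.104). With a term for the Y-linked transcripts, which compares the genotypes through knockout replicate 2 alone, the log2 fold change was 0.75.

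Bcl3 (ENSMUSG00000053175, chromosome 7 of GRCm38, 19808462 to 19822770, minus strand), which binds p50 and p52 homodimers in the nucleus, was at 20.7, 15.4 and 19.9 CPM in WT. It was at 10.6, 13.01 and 36.1 CPM in knockout replicates 1 to 3. Knockout replicates 1 and 2 lay below all WT libraries and replicate 3 above them, so the log2 fold change of 0.10 joined values on both sides of WT (SE 0.451, adjusted p = 0.885 in the edgeR F-test). Leaving out knockout replicate 3 gave -0.65 (SE 0.146, adjusted p = 0.00422), a level of 0.634 times WT. With a term for the Y-linked transcripts, which compares the genotypes through knockout replicate 2 alone, the log2 fold change was -0.52. Of its exons, 161 bases overlap the antisense gene Gm16175.

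Of the ubiquitin enzymes, Tnfaip3 (ENSMUSG00000019850, chromosome 10 of GRCm38, 19000910 to 19015657, minus strand) had the largest log2 fold change of the 10 genes in the counts (on log2(FPKM + 1), Nfkbiz did, at 1.30 against 1.16). A20, its product, edits ubiquitin chains on RIPK1 and other signalling proteins and so limits NF-kB activation. Tnfaip3 was at 5.33, 5.51 and 4.55 CPM in WT and at 11.4, 10.02 and 40.01 CPM in knockout replicates 1 to 3. Every knockout library lay above every WT library, and replicate 3 was 3.73 times the mean of the other knockout libraries. The mean rose from 5.13 ± 0.505 to 20.5 ± 16.9 CPM (SD, n = 3 each), a log2 fold change of 1.996 (SE 0.552, adjusted p = 0.0342 in the edgeR F-test). Leaving out knockout replicate 3 gave 1.06 (SE 0.153, adjusted p = 0.000323), a level of 2.09 times WT. Without WT replicate 1, 2 or 3 the log2 fold change was 2.02, 2.05 and 1.92 (adjusted p = 0.102, 0.105 and 0.119). It was 0.97 with a term for the Y-linked transcripts, a fit that compares the genotypes through knockout replicate 2 alone.

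Birc3, which encodes cIAP2, a ligase of RIPK1 that also restrains the non-canonical kinase NIK, was at 13.3, 13.3 and 13.8 CPM in WT. Knockout replicates 1 to 3 held 11.8, 12.4 and 23.7 CPM. As for Bcl3, knockout replicates 1 and 2 lay below all WT libraries and replicate 3 above them. Knockout differed from WT by 0.25 on the log2 scale (SE 0.272, adjusted p = 0.507 in the edgeR F-test) and by -0.15 without knockout replicate 3 (adjusted p = 0.249).

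**Figure D2:**
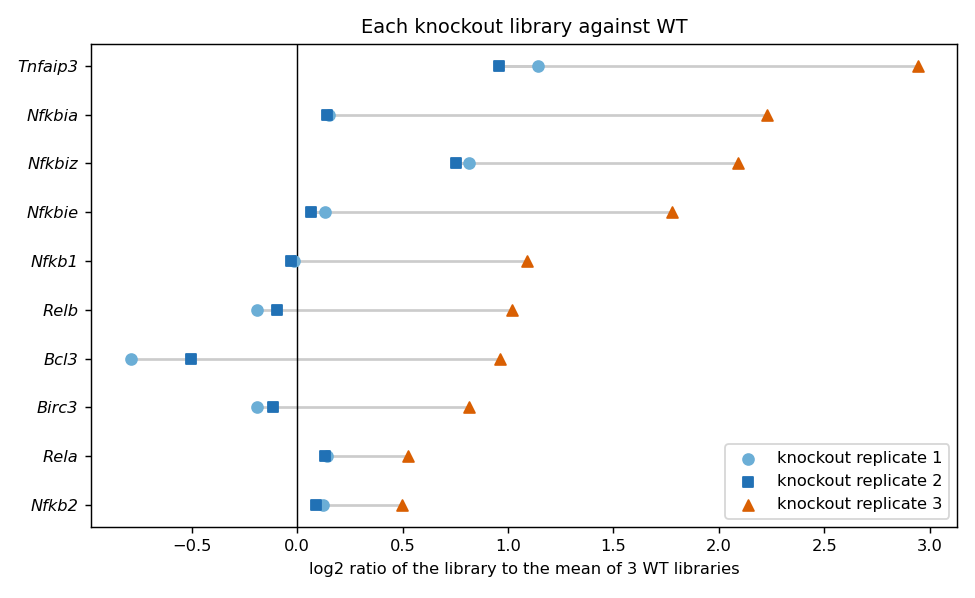
The log2 ratio of each knockout library to the mean of the 3 WT libraries (log2 CPM with a prior count of 2), ordered by the value in knockout replicate 3. Replicates 1 and 2 lie close to each other in each gene, on the WT line or near it except for Tnfaip3, Nfkbiz and Bcl3, while replicate 3 lies from 0.50 for Nfkb2 to 2.94 for Tnfaip3.

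Read library by library, knockout replicates 1 and 2 gave a median log2 ratio to WT of 0.13 and 0.08 over the 10 genes, and replicate 3 of 1.06. The corresponding medians over all genes tested were 0.00, 0.00 and -0.02. In replicate 3 the log2 ratio was 0.50 to 1.09 among the 4 subunits, and Bcl3 and Birc3 lay inside that range, at 0.96 and 0.81. Nfkbie was at 1.78. A log2 ratio over 2, which 2.83% of all genes had in that library, was seen for Tnfaip3, Nfkbia and Nfkbiz, at 2.94, 2.23 and 2.09. These are values of 1 library and have no replicate.

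**Figure D3:**
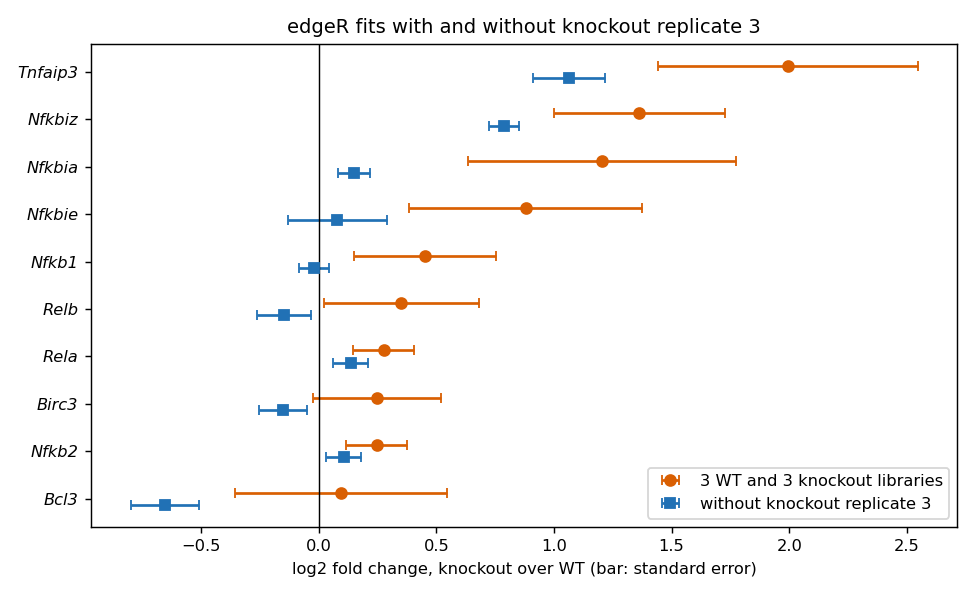
Log2 fold change of knockout over WT with its standard error from the edgeR fit of all 6 libraries (orange circles) and from the fit without knockout replicate 3 (blue squares). Nfkbiz and Tnfaip3 stay above 0 in both fits, Bcl3 moves from 0.10 to -0.65, and the standard errors are smaller without that library in each gene.

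The level of a gene relative to another was read from FPKM, which is per length of transcript. In WT cells the order was Rela (25.5 ± 2.52 FPKM, SD, n = 3), Nfkbia (23.5 ± 0.988), Nfkb1 (15.9 ± 0.964), Nfkb2 (14.6 ± 1.35), Bcl3 (11.7 ± 1.94), Relb (8.23 ± 0.928), Nfkbiz (7.66 ± 0.322), Birc3 (6.88 ± 0.628), Nfkbie (2.18 ± 0.477) and Tnfaip3 (1.13 ± 0.115). The ranges overlapped between the neighbours Rela and Nfkbia, Nfkb1 and Nfkb2, Relb and Nfkbiz, and Nfkbiz and Birc3. Their ranges alone therefore did not separate these neighbours in FPKM. Read within each WT library, Nfkb1 was always above Nfkb2, and Nfkbiz above Birc3. Rela and Nfkbia, and Relb and Nfkbiz, were in the other order in WT replicate 2. By CPM per kilobase the WT means of Relb, Nfkbiz and Birc3 lay further apart, at 6.86, 5.18 and 2.27. In knockout cells Nfkbia came first, at 25.6, 25.4 and 112 FPKM in replicates 1 to 3, above Rela at 27.5, 27.1 and 37.5 FPKM only by the mean. Nfkbiz was at 14.5, 14.3 and 39.4 FPKM and Nfkb1 at 15.2, 15.3 and 37.5 FPKM in knockout replicates 1 to 3, with Nfkbiz the lower in replicates 1 and 2 and the higher in replicate 3. The ranges of all neighbours in the knockout order overlapped, apart from those of Relb and Birc3.

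Counts and FPKM did not give the same picture of Birc3. Its counts in knockout replicate 3 were 1.76 times the WT mean after normalization. Its FPKM in that library was 6.94, inside the WT range of 6.31 to 7.55 FPKM, and knockout replicates 1 and 2 were at 5.29 and 4.63 FPKM. On the log2(FPKM + 1) scale the difference of knockout from WT was -0.26 for Birc3 and -0.13 for Bcl3 (adjusted p = 0.220 and 0.837 in limma), and the other 8 genes kept a positive sign. The reads were not reassigned to isoforms here, and the part of transcript length in this difference was not tested.

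**Figure D4:**
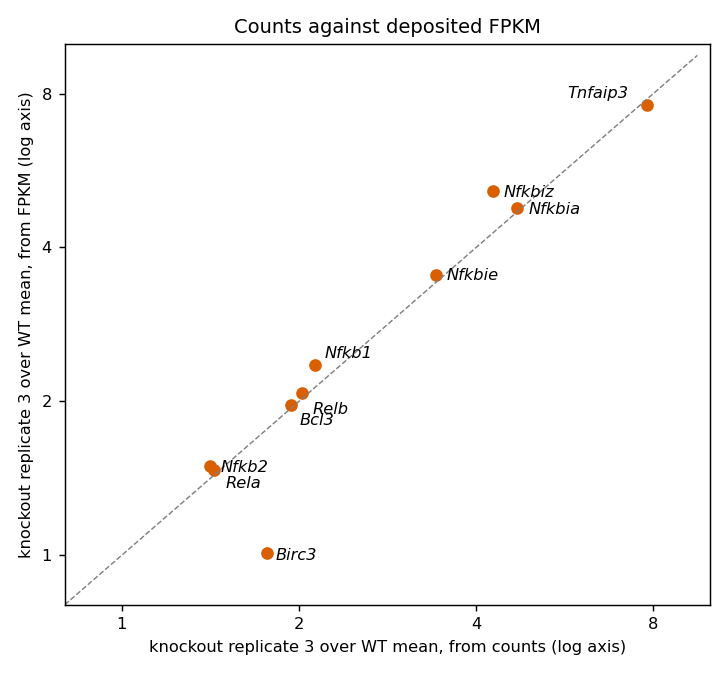
Ratio of knockout replicate 3 to the WT mean from TMM-normalized counts (horizontal, log axis) and from the deposited FPKM (vertical, log axis), with a dashed line where both are equal. Birc3 lies off the line, at 1.76 from counts and 1.01 from FPKM, and the other 9 genes lie near it.

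The other genes of the pathway were taken as 6 lists of 109 genes, of which 106 were in the count table and 85 passed the filter. Of the 85, 25 were higher and 3 lower in knockout than in WT cells (adjusted p under 0.05, edgeR F-test), against 16.4% and 16.6% of all genes tested. Without knockout replicate 3, 36 were higher and 9 lower, against 23.9% and 24.2% of all genes in that fit. Without WT replicate 1, 2 or 3, 10, 6 and 6 were higher, against 7.01%, 5.75% and 5.11% of all genes in the same fits. With a term for the Y-linked transcripts 3 were higher, against 0.598% of all genes. None of the 3 further subunits and IkB proteins (Rel, Nfkbib and Nfkbid) passed, with a median log2 fold change of 0.28 and 0 of 3 at an unadjusted p under 0.05.

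Among 17 kinases, 6 were higher and 1 was lower, against 16.4% and 16.6% of all genes tested. Their median log2 fold change was 0.27. Irak2, a kinase of the interleukin-1 and Toll-like receptor complex, rose from 9.65, 7.88 and 7.93 CPM in WT to 16.9, 17.2 and 36.1 CPM in knockout replicates 1 to 3 (log2 fold change 1.46, adjusted p = 0.0166 in the edgeR F-test). Chuk, which encodes IKK-alpha, and Map3k7, which encodes the IKK-activating kinase TAK1, rose by less, with log2 fold changes of 0.35 and 0.37 (adjusted p = 0.0157 and 0.0109). In both genes knockout replicate 3 was near the other knockout libraries, at 52.8 against 54.8 and 55.7 CPM for Chuk. Tab1, a binding partner of TAK1, fell from 28.4 ± 2.18 to 18.7 ± 0.976 CPM (log2 fold change -0.61, adjusted p = 0.00733). The other IKK subunits, named after their values were seen, had log2 fold changes of 0.32 for Ikbkb and 0.29 for Ikbkg (adjusted p = 0.0376 and 0.0236). By FPKM the libraries of Ikbkg overlapped, with WT at 12.4 to 17.4 and knockout at 16.6 to 16.8 FPKM.

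Of 16 tested adaptors and ubiquitin genes, 3 were higher and 1 lower, against 16.4% and 16.6% of all genes tested. Their median log2 fold change was 0.16. Cyld and Otulin, deubiquitinases that oppose the signal, rose by log2 fold changes of 0.59 and 0.48 (adjusted p = 0.0188 and 0.00982), and Sharpin, a subunit of the linear ubiquitin ligase, by 0.36 (adjusted p = 0.0496). Traf5, a signalling adaptor of TNF receptor family members, fell from 6.98 ± 0.329 to 3.79 ± 0.190 CPM (log2 fold change -0.88, adjusted p = 0.00843 in the edgeR F-test). Its FPKM did not show this fall, at 4.61, 6.19 and 5.41 in WT and 5.95, 2.50 and 5.59 in knockout replicates 1 to 3, with overlapping libraries.

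Of 18 tested receptors, 3 were higher and 1 lower, against 16.4% and 16.6% of all genes tested. Their median log2 fold change was 0.70. Tlr3 and Tlr4, receptors for double-stranded RNA and for lipopolysaccharide, had log2 fold changes of 1.84 and 1.15 (adjusted p = 0.0177 and 0.0130 in the edgeR F-test), and Tnfrsf12a, the receptor of TWEAK, of 0.70 (adjusted p = 0.0103). Il1r1, the signalling receptor of interleukin-1, fell from 33.1, 33.2 and 31.7 CPM in WT to 16.5, 18.9 and 19.9 CPM in knockout replicates 1 to 3 (log2 fold change -0.83, adjusted p = 0.00359). Knockout replicate 3 was not apart from the other knockout libraries in this gene.

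Of 11 ligands 4 passed the filter and 2 were higher, against 16.4% of all genes tested. Il33 was at 2.66, 2.09 and 2.04 CPM in WT and at 8.74, 7.36 and 18.7 CPM in knockout replicates 1 to 3 (log2 fold change 2.36, adjusted p = 0.00798 in the edgeR F-test). Tnfsf11, which encodes RANKL, had a log2 fold change of 1.94 (adjusted p = 0.0149). Il1b, named after its values were seen and below the filter, had 0 counts in 5 libraries and 3.86 CPM in knockout replicate 3.

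Of 27 tested target genes 11 were higher and 0 lower, against 16.4% and 16.6% of all genes tested. Their median log2 fold change was 1.12. Of the 27, 22 were highest in knockout replicate 3, against 33.1% of all genes. At an unadjusted p under 0.05, 16 were higher and 0 lower, against 22.5% and 23.0% of all genes. Ptgs2, which encodes cyclooxygenase-2, was at 25.1, 16.3 and 19.7 CPM in WT and at 133, 115 and 237 CPM in knockout replicates 1 to 3 (log2 fold change 2.99, adjusted p = 0.00321 in the edgeR F-test). The chemokine Ccl2 was at 49.97 and 40.26 CPM in knockout replicates 1 and 2 and at 552 CPM in replicate 3, against 20.4 to 23.0 CPM in WT (adjusted p = 0.0497). Il6 was at 1.48 and 1.76 CPM in knockout replicates 1 and 2 and at 28.7 CPM in replicate 3, against 0.190 to 0.475 CPM in WT (adjusted p = 0.0358). The acute phase gene Saa3 spanned the most, from 0.0951 to 0.475 CPM in WT to 1.67, 2.42 and 689 CPM in knockout replicates 1 to 3 (adjusted p = 0.0474). The WT counts were 10, 4 and 5 for Il6 and 2, 6 and 10 for Saa3, the lowest of them under 3 counts. Both genes passed the filter on low counts through the knockout libraries, so in practice only a rise could be called for them. In the fit that left out knockout replicate 3, 14 of the 27 were higher and 3 lower, against 23.9% and 24.2% of all genes. The 3 lower were Cxcl5, Gadd45b and Irf1, named after their values were seen, at -1.29, -0.33 and -0.26 on the log2 scale (adjusted p = 0.000541, 0.0303 and 0.0477). In that fit Ptgs2, Ccl2, Il6 and Saa3 were among those higher, by 2.61, 1.06, 2.41 and 2.82 on the log2 scale (adjusted p = 9.57e-07, 2.49e-05, 0.00147 and 0.00107).

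**Figure D5:**
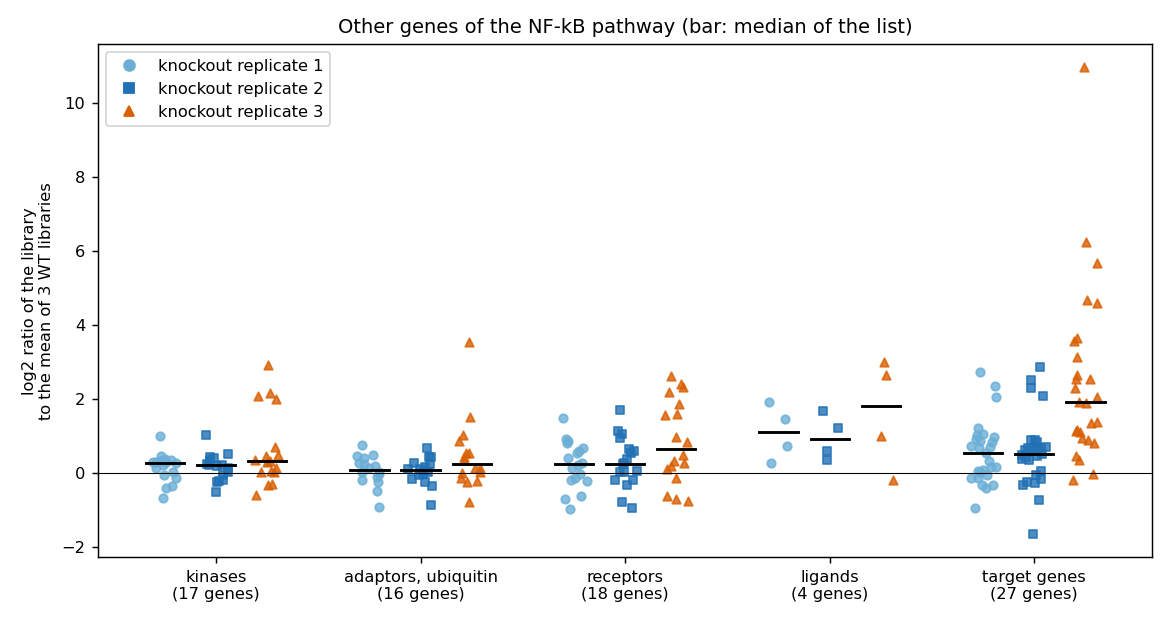
Log2 ratio of each knockout library to the WT mean for the tested genes of 5 pathway lists, with the median of each list as a bar. The kinases have medians of 0.27, 0.20 and 0.31 in knockout replicates 1 to 3, and the target genes have a median of 0.53, 0.50 and 1.91 in knockout replicates 1 to 3.

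Summed markers of several cell types lay outside the range of the other 5 libraries in knockout replicate 3. The summed level of 15 macrophage markers was 69.4 to 147 CPM in WT, 116 and 74.7 CPM in knockout replicates 1 and 2, and 287 CPM in replicate 3. Of 14 tested, 9 were highest in knockout replicate 3, which was the highest library for 33.1% of all genes. Among the 9 were Adgre1 at 31.9 CPM against 1.76 to 4.27 CPM elsewhere (10.4 times the WT mean) and Lyz2 at 159 CPM against 25.5 to 58.0 CPM (3.65 times). Mrc1 and C1qa were lowest in knockout replicate 3, at 1.91 and 3.72 CPM. The pan-leukocyte marker Ptprc was at 4.91 CPM there and at 1.14 to 3.09 CPM in the other 5 libraries. No macrophage marker was at 0 in a knockout library, and Aif1 was at 0 in WT replicate 1. None of the 14 passed an adjusted p of 0.05 in the edgeR F-test. At an unadjusted p under 0.05, 1 was higher, against 22.5% of all genes. The 10 fibroblast markers summed to 18005 CPM in knockout replicate 3 and to 27072 to 33780 CPM elsewhere, mostly Col1a1, Col1a2 and Col3a1. Of these 10 markers, 7 were lowest in knockout replicate 3 and 1, Dcn, was highest there, at 243 CPM. Over all genes tested, 4555 of 13386 were lowest there. Vim was at 3614 CPM there, against 2655 to 3058 CPM in WT. The 6 epithelial markers summed to 5.33 against 29.4 to 51.2 CPM, and the 5 endothelial markers to 32.3 against 48.3 to 66.9 CPM, mostly Tek. The 4 lymphocyte markers in the table summed to at most 0.570 CPM in any library, with Cd3e at 0 in 5 of 6. The part of cell composition in the levels of the NF-kB genes was not tested.

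The profile of Nfkbiz, which had the lowest p of the 10 genes, was compared with all other genes by the Euclidean distance between their log2 CPM over the 6 libraries, each centred on its mean. The 5 nearest were Dstn, Trappc2, Slco3a1, Rab32 and Pdk4, at distances of 0.151 to 0.282. Dstn, an actin-depolymerizing factor, was at 219 to 230 CPM in WT and at 381, 404 and 929 CPM in knockout replicates 1 to 3. None of the other 9 NF-kB genes was among the 5. As the 5 were drawn from all other genes tested, that absence says little about whether those genes share this profile.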

How the data were processed

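The authors made stranded poly(A) libraries from day 3 cultures and aligned the reads with HISAT2 2.1.0 (GRCm38/mm10, per the submitters' processing notes). They deposited raw counts per gene (the counting program is not given in the sources used here) and FPKM from Cufflinks 2.1.1. Columns of fold changes and FDR values of the authors were not used.

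In R 4.3.3, counts of all genes were filtered with filterByExpr, TMM-normalized and compared by the quasi-likelihood F-test of edgeR 4.0.16 without covariates, with Benjamini-Hochberg adjustment over all 13386 genes tested. The standard error is the absolute log2 fold change over the square root of F. Log2 CPM used a prior count of 2. Alternatives were RLE factors, library size only, DESeq2 1.42.0, the exact test, 2 other filters, a replicate block, a term for Y-linked transcripts, each library left out and, added after seeing the data, limma 3.58.1 on log2(FPKM + 1). The tests were tested on simulated data. With 3 cultures a genotype of unstated origin, p-values measure only the spread between these samples, which may be technical, and the floor of 3 counts covers counting error only. Positions and exon overlaps are from GENCODE M21, promoters from RefSeq.

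The 10 genes, the pathway and marker lists and the rule for named genes (all 10; in each list every gene at an adjusted p under 0.05 or, beyond 4, the 4 largest changes whose libraries do not overlap; Rnf20; and the 5 profiles nearest to the gene of lowest p) were chosen with earlier results of these data known.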

Additional observations from a re-analysis of the deposited data

How the results depend on the processing

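Replicate numbers did not pair the libraries (correlations of deviations of -0.0656, 0.0366 and 0.0109). With the replicate block 1 of the 10 genes was higher (Nfkbiz, adjusted p = 0.0476; Tnfaip3, 0.0692), 15 pathway genes were higher, against 10.3% of all genes, and the log2 fold change of Bcl3 was -0.10. With a term for Y-linked transcripts 0 of the 10 and 3 pathway genes were higher and 0 pathway genes lower, against 0.598% of all genes higher and 0.217% lower, and log2 fold changes were -0.03 for Nfkb1, -0.10 for Relb, -0.52 for Bcl3 and -0.12 for Birc3. In this fit the genotypes are compared through knockout replicate 2 alone. DESeq2 and the exact test each put 2 of the 10 past the thresholds of the study, against 0 in the quasi-likelihood test. With library size only, 5 pathway genes were lower, against 20.1% of all genes. With limma on log2(FPKM + 1), 1 of the 10 was higher, against 13.3% of all genes, and Bcl3 and Birc3 had differences of -0.13 and -0.26.

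With each library left out, 0 to 2 of the 10 were higher, 0 to 1 lower and 0 to 1 past the thresholds of the study (Tnfaip3 without knockout replicate 3). Pathway genes numbered 6 to 36 higher and 3 to 9 lower. In the same fits 5.11% to 23.9% of all genes were higher and 5.17% to 24.2% lower. The log2 fold change ranged from -0.65 to 0.40 for Bcl3, -0.15 to 0.57 for Relb, -0.15 to 0.43 for Birc3 and -0.021 to 0.65 for Nfkb1, each negative without knockout replicate 3, and Bcl3 also without WT replicate 2 (-0.03). Nfkb2, Rela, Nfkbia, Nfkbie, Nfkbiz and Tnfaip3 kept their sign in all 15 alternatives. By CPM per kilobase, 6 genes changed place in the knockout order of levels and 0 in WT. Without a WT library 0 of the 10 and 6 to 10 pathway genes were higher, against 5.11% to 7.01% of all genes. Without a knockout library 2 of the 10 and 30 to 36 pathway genes were higher, against 12.4% to 23.9% of all genes. The cause was not tested.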
